A study of Mus musculus with 24 samples.

Results

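Colon macrophages with a high level of F4/80 and a low level of MHC class II (MHCIIlow) were set against the monocytes of the same tissue. Both populations had been sorted by flow cytometry from the lamina propria (LP) of the colon. The libraries were taken by their labels, 3 of LP MHCIIlow macrophages (pools II, III and IV) and 3 of LP monocytes (pools III, IV and V), which makes 6 of the 24 RNA sequencing libraries of the series, and all genes were compared. All 6 came from wild-type C57BL/6J mice of both sexes (strain label C57/BL, state label healthy) that were sacrificed at 3 to 4 months of age. Each library held the sorted cells of 13 to 15 pooled mice, so that p-values rest on pools and not on single animals. The spread they use is that within the groups of all 24 libraries, and not that of the 6 compared libraries alone. Monocytes were gated as F4/80int CD11b+ Ly6Chi MHCII− cells, macrophages as F4/80hi CD11b+ MHCIIlow cells, and CD11chi MHCIIhi dendritic cells were gated out beforehand. By its methods, the study treated wild-type controls, like the mice with tumours, with dextran sodium sulphate (DSS) in the drinking water, which injures the colon epithelium, some weeks before sacrifice. Further groups are used for reference, LP MHCIIhi macrophages (F4/80hi CD11b+ MHCIIhi, pools III, IV and V) and the MHCIIlow macrophages (pools I, V and VII) and monocytes (pools I, II and V) of colon tumours. The tumours came from DSS-treated Apc Min/+ mice (labelled APC/Min), which carry a germline mutation of Apc.

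Ly6Chi monocytes leave the blood for the colon, where they lose Ly6C, gain F4/80 and MHC class II and pass through intermediate stages. Resident macrophages below the epithelium take up bacteria and dying cells, produce IL-10 and support the epithelium, vessels and nerves. The transcription factor PU.1 is needed in both cell types, and MAF is known for its part in the resident programme. In the study, blocking the CSF1 receptor in mice with tumours lowered the numbers of both F4/80hi macrophage subsets of the tumours, but not those of monocytes. In bulk libraries such as these, fewer cells of a type and less RNA per cell cannot be told apart.

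Values are the deposited log2 RPKM (log2 of reads per kilobase of gene length, scaled to the size of each library). Between 12.8 and 31.3 M reads per macrophage library and between 20.8 and 40.2 M reads per monocyte library were counted on genes, and counts of reads cover counting error only. Differences are on the log2 scale, macrophages minus monocytes, ± the standard error of limma's model of all 24 libraries. The ± after the mean of a group is the SD of its 3 libraries. All p-values were adjusted by the Benjamini-Hochberg method across the 12878 genes tested, with a threshold of 0.05. A gene that passed is said to have been higher or lower. Fitted differences of genes with 0 reads in a group depend on the prior of 0.25 reads in the deposited values and are no bounds. Values per library are given in the order of pools II, III and IV for macrophages and III, IV and V for monocytes. Of the 12878 genes, 1533 (11.9%) were higher and 2263 (17.6%) lower in MHCIIlow macrophages. All 3 libraries of one population lay beyond all 3 of the other for 1451 of the higher and 2076 of the lower genes, while groups without overlap made up 21.5% (macrophages above) and 23.4% (macrophages below) of all genes tested. At least 4-fold changes were about as many in both directions, with 679 genes higher and 671 lower. The split depends on the scaling of the libraries. The median difference of all genes was −0.03, and it became 0.21 when library sizes were set to the summed reads, where 2089 genes were higher and 1575 lower, so that 57.0% of the calls were higher in place of 40.4%.

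**Figure D1:**
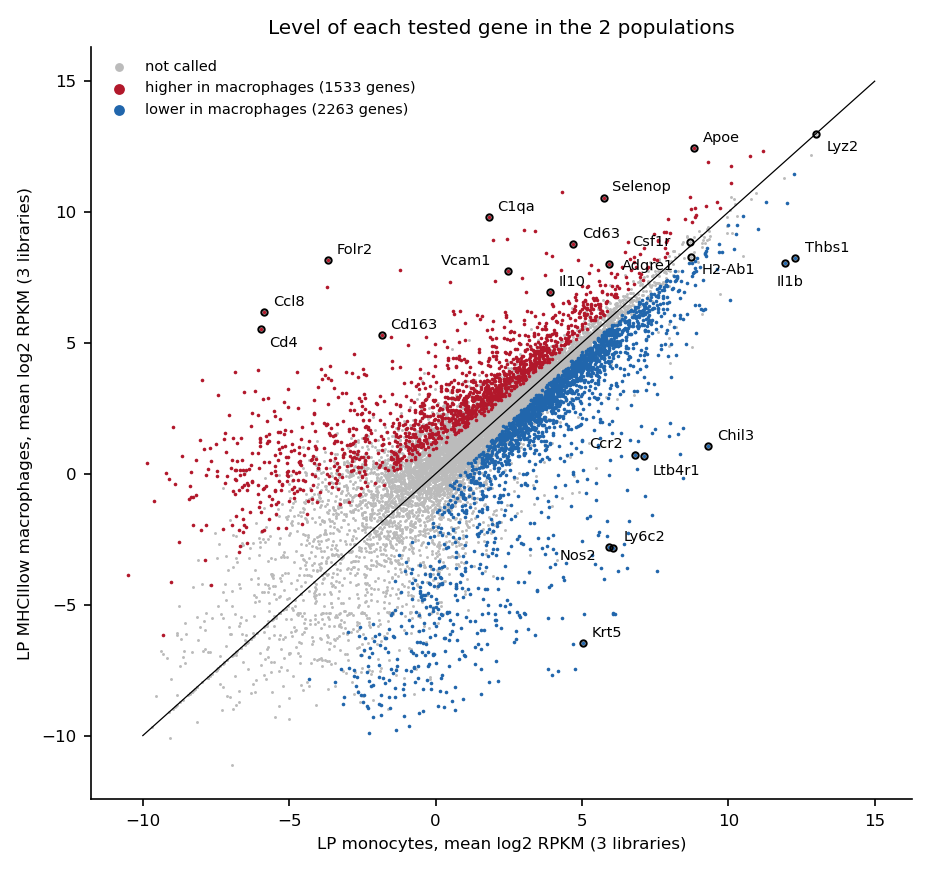
Mean log2 RPKM of each of the 12878 genes tested in the 3 LP monocyte libraries (horizontal axis) and the 3 LP MHCIIlow macrophage libraries (vertical axis), with the line of equal level. The 1533 genes called higher in macrophages (red) lie above the line and the 2263 called lower (blue) below it; named genes are ringed, and Lyz2, Csf1r and H2-Ab1 were not called.

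Monocyte libraries of pools III and V differed from that of pool IV in a part of the genes. Over all genes tested, the lowest Spearman correlation with another monocyte library was 0.896 for pools III and IV and 0.918 for pool V. For 109 of the 2263 genes lower in macrophages, pool IV lay over 2 log2 units below both other monocyte libraries. Genes with pool IV above the others, or with another pool apart, were not counted. Keratins and other transcripts of squamous epithelium (25 genes listed after their values were seen) took 0.828 and 0.4% of their reads, against 0.00351% in pool IV, 0.00227 to 0.00298% in the macrophage libraries and at most 0.0114% in any other group. Of these 25 genes, 19 were called lower in macrophages. Immunoglobulin genes took 0.344, 0.46 and 1.02% of the monocyte reads and 0.0216, 0.174 and 0.324% of the macrophage reads. Of 170 tested, 57 were lower and 1 higher, against 17.6% lower and 11.9% higher of all genes. With pool IV as the only monocyte library, 955 genes were higher and 1351 lower. Of the calls from all libraries, 834 of the 1533 higher and 1307 of the 2263 lower genes were then called in the same direction. That fit called fewer genes over all genes tested, so a smaller count in a list below is not by itself particular to that list. A call can also end in that fit because the group has no replicate left. The loss of a call there does not by itself show that the difference rests on pools III and V. Beside a gene below, it is stated wherever the fit with pool IV alone ended the call.

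The genes of the sorted surface proteins were taken first. Adgre1, which encodes F4/80 (chromosome 17, 57358691 to 57483527, GRCm38/mm10), stood at 7.97, 7.95 and 8.11 log2 RPKM in the macrophage libraries and at 5.96, 5.84 and 5.98 in the monocyte libraries. The groups did not overlap, and the difference was 2.08 ± 0.19 (adjusted p = 6.8e-08). Ly6c2, 1 of the genes of the Ly6C antigen, stood at −3.20, −3.25 and −2.0 in macrophages and 5.43, 6.44 and 6.33 in monocytes, a difference of −8.89 ± 0.85 (adjusted p = 1.5e-07). Its neighbour Ly6c1 stayed under 1 RPKM in every group and was not tested. CD11b was used to gate both populations, and its gene Itgam stood at 5.76, 5.95 and 5.82 in macrophages and 7.15, 7.76 and 7.22 in monocytes (−1.53 ± 0.20, adjusted p = 8.6e-06), although 66.3% of its 51-base stretches also occur in the overlapping gene model Gm49368.

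MHC class II genes did not separate the populations as their names would have it. H2-Aa, an alpha chain of class II, stood at 5.98, 8.77 and 8.17 in MHCIIlow macrophages and 7.44, 7.39 and 7.76 in MHCII− monocytes (0.11 ± 0.61, adjusted p = 0.923), so that the monocyte libraries lay inside the range of the macrophage ones. Pool II was the lowest macrophage library for H2-Aa, for the beta chain H2-Ab1 (6.67, 9.48 and 8.68 against 8.66, 8.60 and 8.95 in monocytes), for H2-Eb1 (6.06, 9.22 and 8.46 against 7.44, 7.31 and 7.36) and for the invariant chain Cd74 (9.33, 11.06 and 10.56 against 9.95, 10.21 and 10.52). None of the 4 passed the test, with adjusted p = 0.614 for H2-Ab1, 0.571 for H2-Eb1 and 0.917 for Cd74, although H2-Eb1 passed with the pool number as a fixed block (0.0112) and not as a random one (0.526) or with only the shared pools (0.116). In LP MHCIIhi macrophages H2-Aa averaged 12.26 log2 RPKM. Of 11 tested genes of the class II pathway only Ciita, the transactivator of class II genes, was called, and it was lower in MHCIIlow macrophages (0.84, 1.33 and 0.45 against 2.53, 2.68 and 2.56, −1.72 ± 0.36, adjusted p = 0.0011).

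The 15 largest increases in MHCIIlow macrophages included genes with no read in any monocyte library. The chemokine gene Ccl8, a ligand for receptors of monocytes and eosinophils (chromosome 11, 82115185 to 82116799), stood at 5.85, 6.36 and 6.37 log2 RPKM in macrophages, while no read fell on it in any monocyte library. Against a floor of 3 reads per monocyte library, Ccl8 was at least 420-fold higher (adjusted p = 1.7e-09). Pla2g2d, a secreted phospholipase A2, at 2.99, 4.02 and 3.70, and Retnla, a secreted resistin-like protein of alternatively activated macrophages, at 3.0, 4.49 and 4.37, also had 0 reads in every monocyte library. They were at least 308-fold (adjusted p = 1.6e-06) and at least 113-fold higher (adjusted p = 2.7e-08). Folr2, the folate receptor beta of resident macrophages, stood at 8.43, 7.82 and 8.28 in macrophages and, with 32, 2 and 0 reads, at 0.25, −4.31 and −6.93 in monocytes (11.84 ± 1.61, adjusted p = 1.3e-05). Its exons overlap those of the gene model Gm10602 over 63.1% of their bases, so reads of both cannot be told apart. Cd4, the coreceptor of T helper cells that some gut macrophages also carry, was at 5.15, 5.84 and 5.65 in macrophages and −2.83, −6.21 and −8.83 in monocytes (11.51 ± 1.69, adjusted p = 3e-05), whereas the T cell genes Cd3e, Cd3d and Cd3g averaged −3.57, −6.05 and −4.85 log2 RPKM in macrophages and −3.77, −5.88 and −5.09 in monocytes.

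In the same set of 15 genes, Fcrls, an Fc receptor-like scavenger receptor, stood at 6.53, 7.76 and 7.08 in macrophages and −2.26, −0.82 and −8.04 in monocytes (10.83 ± 1.45, adjusted p = 1e-05). Slco2b1, an uptake transporter for organic anions, stood at 4.72, 3.13 and 3.77 and −5.99, −9.31 and −5.26 (adjusted p = 4.4e-05), and Fcna, the lectin ficolin A, at 8.73, 7.07 and 7.53 and 0.18, −1.50 and −2.28 (adjusted p = 0.00019). The monocyte values of such genes rest on few reads and spread widely between pools. C1qa was the 1 gene of the 15 that stayed above 1 RPKM in every monocyte library (2.27, 2.07 and 1.16), at 9.47, 9.96 and 9.96 in macrophages (7.96 ± 0.32, adjusted p = 8.2e-13). The others were Npl (a lyase of sialic acid, 4.82 in macrophages and −3.96 in monocytes on average), Alox5 (5-lipoxygenase of leukotriene synthesis, 3.99 and −3.92), the adhesion adaptors Sorbs3 (4.10 and −3.60) and Fblim1 (3.79 and −3.79), the fatty acid desaturase Fads1 (3.64 and −3.90) and the unnamed gene ENSMUSG00000095306.2 (3.88 and −4.72). Their adjusted p ran from 7.6e-05 for Npl to 0.00071 for Fads1. The call of Fblim1 alone was lost in 1 of 22 alternatives, the fit of only the 6 libraries compared.

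**Figure D2:**
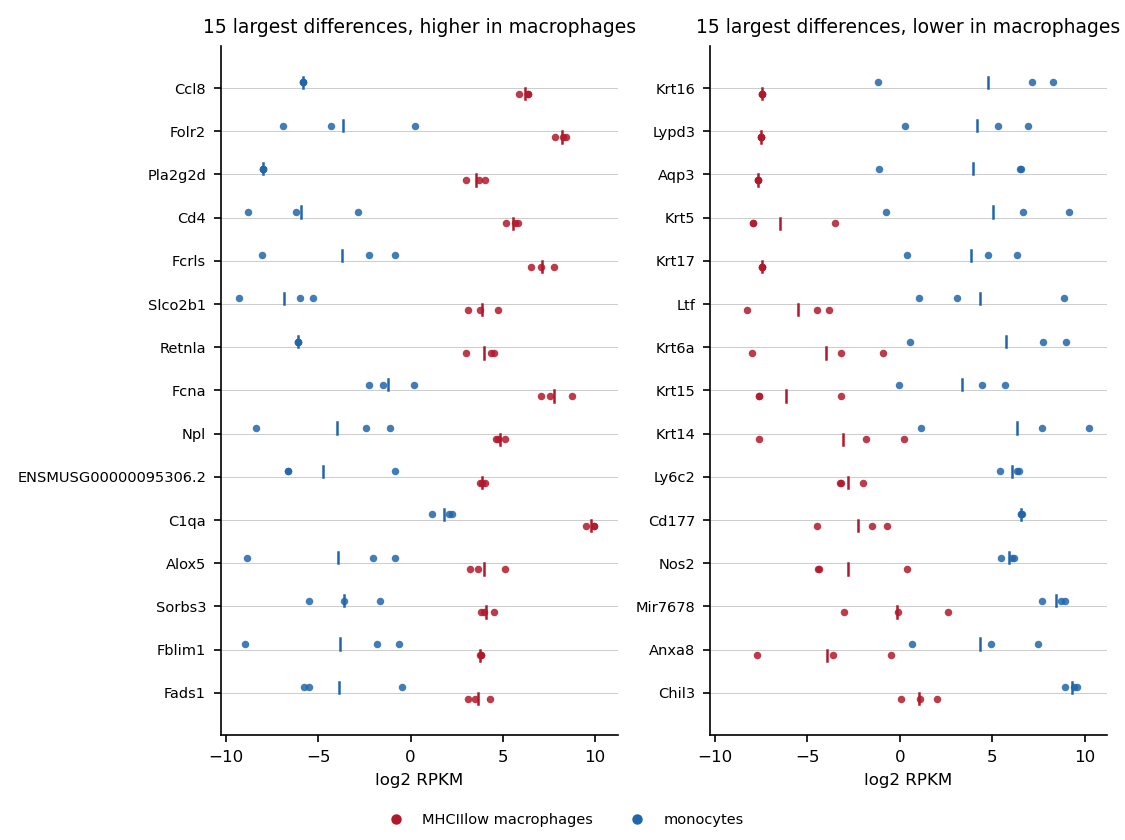
Log2 RPKM in each of the 3 LP MHCIIlow macrophage (red) and 3 LP monocyte libraries (blue) for the 15 genes with the largest increase (left) and the 15 with the largest decrease (right) that met the rule for named genes; short bars are group means. The rule left out genes whose groups overlapped, so the lack of overlap within a gene follows from the selection. On the right the keratin genes show 1 monocyte library, pool IV, far below the other 2.

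Among the 15 largest decreases, 9 were genes of squamous epithelium, and these rest on pools III and V. Krt16, a keratin of stressed epidermis, had 0 reads in every macrophage library and stood at 7.13, −1.18 and 8.29 in monocytes. Krt5, a keratin of basal cells, stood at −7.95, −3.49 and −7.95 in macrophages and 9.19, −0.72 and 6.67 in monocytes. With pool IV as the only monocyte library neither passed the test, with adjusted p = 0.154 for Krt16 and 0.201 for Krt5. Likewise lost were Aqp3 (0.0954), Krt17 (0.0989), Krt6a (0.558), Krt15 (0.203), Krt14 (0.533) and Anxa8 (0.48), while Lypd3 kept an adjusted p of 0.0445. Ltf, a protein of neutrophil granules and of mucosal secretions, showed 8.89, 1.03 and 3.08 in monocytes against −8.27, −3.82 and −4.49 in macrophages, led by pool III, and its adjusted p with pool IV alone was 0.139. Krt6a and Krt14 also lost their calls without macrophage pool IV or without monocyte pool III or V, and Anxa8 without macrophage pool III or monocyte pool III or V. The part of epithelial RNA in these values was not tested.

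The remaining 5 did not depend on those pools. Cd177, a surface protein of neutrophils that monocytes can also transcribe, stood at −0.72, −1.53 and −4.47 in macrophages and alike in all monocyte libraries (6.56, 6.55 and 6.60), a difference of −8.81 ± 0.80 (adjusted p = 7.6e-08). Chil3, a chitinase-like secreted protein (Ym1), stood at 0.06, 2.0 and 1.11 and 8.92, 9.59 and 9.45 (−8.27 ± 1.27, adjusted p = 5.1e-05), with 26.2% of its 51-base stretches shared with Chil4 and a gene model. Nos2, the inducible nitric oxide synthase, stood at −4.38, −4.43 and 0.39 and 6.21, 6.10 and 5.49 (−8.74 ± 0.87, adjusted p = 2.5e-07), with pool IV the highest macrophage library. Ly6c2, above, was the fourth, and Mir7678, a microRNA gene model with 1.41% of its exon bases in Slpi, the last (8.45 on average in monocytes and −0.18 in macrophages). Slpi was itself lower in macrophages (below), and whether Mir7678 differed apart from Slpi was not tested. With pool IV alone the adjusted p of Cd177 was 9e-05, of Chil3 0.0051 and of Nos2 0.00015.

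Genes shared by tissue macrophages of many organs formed the first of 30 lists. The genes named from a list are the called ones with its largest differences and a few that textbooks give, and any beyond those were chosen after their values were seen. Counts in every list are to be read against the 11.9% higher and 17.6% lower of all genes. Of 38 core genes tested, 20 were higher (52.6%, against 11.9% of all genes) and 6 lower (15.8%, against 17.6%) in MHCIIlow macrophages, with a median difference of 1.34. Selenop, which carries selenium out of cells, stood at 10.58, 10.43 and 10.65 in macrophages and 6.06, 5.56 and 5.61 in monocytes, a 28.1-fold difference (4.81 ± 0.20, adjusted p = 8.2e-13). Mertk, a receptor for dying cells, stood at 3.16, 3.75 and 3.20 and −1.21, −0.84 and 0.09 (4.02 ± 0.43, adjusted p = 5.7e-07). The paraoxonase Pon3 averaged 3.42 in macrophages and 0.47 in monocytes (adjusted p = 1.2e-07). Not every gene of the list followed. The lipopolysaccharide receptors Cd14 (−1.65 ± 0.27, adjusted p = 8.3e-05) and Tlr4 (−1.64 ± 0.22, adjusted p = 1.1e-05) and the Fc receptor Fcgr1 (CD64, −1.67 ± 0.36, adjusted p = 0.0014) were lower in macrophages. Csf1r, the receptor for CSF1, stood at 9.10, 8.80 and 8.66 in macrophages and 8.49, 8.85 and 8.75 in monocytes and was not called (adjusted p = 0.436).

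Of 26 scavenger and resident receptors tested, 14 were higher (53.8%) and 2 lower (median 2.39). The counts were 9 and 1 with pool IV as the only monocyte library. Besides Folr2, the list was led by Cd209f, a SIGN-related lectin, at 2.42, 2.73 and 3.92 in macrophages and 0 reads in all monocyte libraries, at least 153-fold higher (adjusted p = 1.2e-06). Timd4, a phosphatidylserine receptor that marks long-lived gut macrophages, stood at 2.48, 2.73 and 3.42 in macrophages and −4.62, −7.94 and −5.09 in monocytes (adjusted p = 9.2e-05). On the summed reads the ratio was 438, with a 95% counting interval of 171 to 1607. The haemoglobin-haptoglobin receptor Cd163 stood at 5.94, 4.69 and 5.23 and −2.80, −2.37 and −0.30 (7.11 ± 1.41, adjusted p = 0.00067). Further members chosen after their values were seen were Mrc1, the mannose receptor (8.09, 7.52 and 7.77 against 3.66, 4.52 and 4.63, adjusted p = 0.00013), and Lyve1, a hyaluronan receptor of perivascular macrophages (8.22, 4.92 and 5.57 against 0.39, 1.19 and 0.19). Lyve1 varied between macrophage pools and was called from all libraries (adjusted p = 0.0016). It was not called with pool IV as the only monocyte library, although every macrophage library lay above that library. The lectin-like receptor Olr1, which binds oxidized LDL (−2.71 ± 0.57, adjusted p = 0.0012), and the lysosomal Scarb2 (−0.61 ± 0.16, adjusted p = 0.007) were the 2 lower genes. The call of Scarb2 ended without monocyte pool III and with library sizes as summed reads, among 5 of 22 alternatives (adjusted p = 0.186 with pool IV alone, and up to 0.208).

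Complement genes moved in both directions. The 3 chains of C1q, the recognition molecule of the classical pathway, are encoded side by side on chromosome 4 and were all higher. C1qb stood at 10.59, 10.80 and 10.87 in macrophages and 4.42, 4.24 and 4.26 in monocytes (6.44 ± 0.26, adjusted p = 8.2e-13) and C1qc at 8.46, 9.31 and 9.06 and 2.16, 1.99 and 1.77 (6.97 ± 0.43, adjusted p = 4.8e-10). Over the list, 9 of 23 tested genes were higher (39.1%, against 11.9% of all genes) and 5 lower (median 1.31). The lower share of 21.7% lay near the 17.6% of all genes. Vsig4, a receptor for C3 fragments, was higher, at 5.26, 3.40 and 3.32 against −1.39, −3.35 and −2.70 (6.48 ± 1.57, adjusted p = 0.0038); with only the shared pools III and IV of each group its adjusted p was 0.0531. The central component C3 was lower, at 3.10, 5.14 and 4.10 against 7.05, 7.32 and 7.18 (−3.07 ± 0.31, adjusted p = 3e-07). The other lower genes were the integrin chains Itgam, Itgax and Itgb2, which form complement receptors, and Cfb, factor B of the alternative pathway, whose exons overlap a gene model over 79.5% of their bases.

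The promoters of C1qb and C1qc are shown because their genes separated all libraries of the populations, beside that of Ccr2, the chemokine receptor of monocytes, which moved the other way. C1qa separated them too, but the promoter set used had no entry for it. Each holds 300 bases around a start of the gene in RefSeq, 5′ to 3′ on the strand of the gene. In the annotation used for gene coordinates, 263 bases of the C1qb, 99 of the C1qc and 17 of the Ccr2 window lie before the first base of the gene. Capitals mark matches on either strand to the PU.1 core GAGGAA, the MAF half-site TGCTGA or the KLF letters GGGNGTG.
C1qb, chr4:136886151-136886450, minus strand, GRCm38.p6: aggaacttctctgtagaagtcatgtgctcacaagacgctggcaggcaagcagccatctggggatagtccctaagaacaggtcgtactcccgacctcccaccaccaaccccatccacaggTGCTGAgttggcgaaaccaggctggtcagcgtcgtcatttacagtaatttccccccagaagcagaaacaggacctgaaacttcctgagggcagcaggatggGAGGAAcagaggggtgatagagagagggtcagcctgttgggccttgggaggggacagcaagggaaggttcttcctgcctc
C1qc, chr4:136892865-136893164, minus strand, GRCm38.p6: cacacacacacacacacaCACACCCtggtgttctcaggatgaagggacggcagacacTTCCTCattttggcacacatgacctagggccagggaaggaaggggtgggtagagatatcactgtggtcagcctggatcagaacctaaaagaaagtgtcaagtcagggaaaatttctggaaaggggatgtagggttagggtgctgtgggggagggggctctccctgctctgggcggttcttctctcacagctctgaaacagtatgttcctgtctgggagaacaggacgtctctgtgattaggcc
Ccr2, chr9:124101933-124102232, plus strand, GRCm38.p6: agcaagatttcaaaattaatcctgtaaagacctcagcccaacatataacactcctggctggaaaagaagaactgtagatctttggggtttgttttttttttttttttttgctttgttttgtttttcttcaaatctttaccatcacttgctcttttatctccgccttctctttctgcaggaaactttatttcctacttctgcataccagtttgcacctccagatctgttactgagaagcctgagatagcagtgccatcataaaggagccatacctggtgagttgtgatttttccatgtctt
The C1qb window held 1 MAF half-site and 1 PU.1 core and the C1qc window 1 KLF match and 1 PU.1 core, and Ccr2 held none of these or of the AP-1 letters TGANTCA and the C/EBP letters TTGCNNAA. These letters are common. The PU.1 core occurred in 28.3% of all 27025 promoters of this length, in 27.6% of those of the tested genes, 28.2% of those of the higher and 29.7% of those of the lower genes. The MAF half-site occurred in 19.1, 15.3, 16.7 and 14.9%, the KLF letters in 29.0, 35.8, 37.2 and 37.2%, the AP-1 letters in 7.93, 5.82, 7.22 and 7.38% and the C/EBP letters in 10.8, 8.76, 9.48 and 11.2% of the same 4 sets.

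Uptake of dying cells was represented by 29 tested genes, 9 higher (31.0%) and 6 lower (20.7%, near the 17.6% of all genes), with a median of 0.02. Gas6, the bridge between phosphatidylserine and the receptors Mertk and Axl, stood at 7.89, 6.94 and 7.17 in macrophages and 2.17, −1.91 and 1.24 in monocytes (6.83 ± 0.66, adjusted p = 1.5e-07). Axl itself was 2.45 ± 0.38 higher (adjusted p = 6.5e-05). In the other direction, Cd300lf, an inhibitory receptor for phosphatidylserine, stood at −0.05, 1.81 and −0.20 and 6.04, 6.33 and 5.54 (−5.45 ± 0.36, adjusted p = 1.3e-09). Thbs1, thrombospondin 1, stood at 7.25, 8.74 and 8.76 in macrophages and 12.07, 12.55 and 12.23 in monocytes (−4.03 ± 0.42, adjusted p = 4.3e-07).

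Lysosomal genes were higher in 31 and lower in 9 of 69 tested (median 0.47), and in 41 and 4 with library sizes as summed reads. The counts were 20 and 5 with pool IV as the only monocyte library. The tetraspanin Cd63 of late endosomes stood at 8.54, 8.79 and 8.99 in macrophages and 4.25, 4.75 and 5.13 in monocytes (4.07 ± 0.25, adjusted p = 4.2e-10). The vacuolar ATPase subunit Atp6v0d2 averaged 3.67 and −3.67 (adjusted p = 0.0007). Cathepsin F (Ctsf) averaged 4.58 and −2.79, on monocyte libraries from 0.02, −7.80 and −0.57 (adjusted p = 0.00094). Cathepsins B (Ctsb, 1.02 ± 0.15) and L (Ctsl, 1.41 ± 0.22), progranulin (Grn, 1.36 ± 0.17) and the acid lipase Lipa (1.86 ± 0.19) were higher as well, while prosaposin (Psap, −0.90 ± 0.17) and the saposin cofactor Gm2a (−1.52 ± 0.19) were lower.

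Lipid genes moved in both directions, 9 higher and 9 lower of 38 (median −0.16). Each share was 23.7%, against 11.9% higher and 17.6% lower of all genes. Apoe, the apolipoprotein that carries cholesterol out of macrophages, stood at 11.92, 12.78 and 12.63 in macrophages and 8.50, 8.73 and 9.28 in monocytes, a 12.2-fold difference (3.61 ± 0.35, adjusted p = 1.9e-07). The fatty acid and oxidized LDL receptor Cd36 stood at 8.87, 7.79 and 8.34 and 3.29, 4.43 and 4.20 (4.36 ± 0.73, adjusted p = 0.00013), and the transporter Abca9 at 3.95, 3.06 and 3.55 and 0.58, −0.48 and −0.04 (3.50 ± 0.34, adjusted p = 1.8e-07). Dgat2, which makes triglycerides for storage, was lower, at 3.08, 3.60 and 2.85 against 6.64, 7.04 and 6.69 (−3.61 ± 0.20, adjusted p = 1.3e-10), as was Plin2, which coats lipid droplets (−1.19 ± 0.24, adjusted p = 0.00078). Of 26 iron and haem genes, 9 were higher (34.6%) and 5 lower (19.2%, near the 17.6% of all genes), with a median of 0.68. The iron exporter Slc40a1 (ferroportin) stood at 3.74, 4.36 and 4.08 in macrophages and −0.90, −2.09 and −1.44 in monocytes (5.54 ± 0.38, adjusted p = 1.8e-09), and Hmox1, which breaks haem down, differed by 1.30 ± 0.34 (adjusted p = 0.007, and 0.236 with pool IV as the only monocyte library). Hp, haptoglobin, stood at −1.77, 3.21 and 0.83 and 8.08, 8.53 and 8.48 (−7.61 ± 0.80, adjusted p = 5.1e-07) and the siderophore-binding Lcn2 at −2.73, 0.27 and −1.71 and 1.86, 3.18 and 2.11 (−3.78 ± 0.86, adjusted p = 0.0023), both lower in macrophages. Hp and the receptor for its complexes, Cd163, thus moved in opposite directions.

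Secreted signals were next. Of 27 chemokine genes tested, 8 were higher and 3 lower (median 0.55). After Ccl8 came Pf4 (CXCL4), at 9.37, 9.25 and 9.28 in macrophages and 2.01, 3.65 and 3.45 in monocytes (6.26 ± 0.43, adjusted p = 1.9e-09), and the ligands of CCR2 Ccl7 (9.46, 9.01 and 9.41 and 2.98, 3.91 and 3.27, 5.91 ± 1.08, adjusted p = 0.00032), Ccl12 (3.94, 3.52 and 3.83 and −5.92, −0.29 and −0.92, 6.14 ± 1.28, adjusted p = 0.0011) and Ccl2 (2.70 ± 0.48, adjusted p = 0.00023). Ccl12 was not called with pool IV as the only monocyte library (adjusted p = 0.0728). Cxcl13, a B cell chemoattractant, averaged 2.24 in macrophages and had 0 reads in all monocyte libraries, at least 70.5-fold higher (adjusted p = 9e-06). The lower chemokines included Cxcl9, a T cell chemoattractant induced by interferon gamma, at −0.70, −1.10 and 1.81 against 5.12, 4.85 and 4.08 (−4.68 ± 0.74, adjusted p = 6.9e-05).

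The receptor that reads Ccl2, Ccl7 and Ccl12 lay on the other side. Ccr2 (chromosome 9, 124101950 to 124113557) stood at 0.01, 1.43 and 0.75 in macrophages and 6.64, 6.87 and 6.91 in monocytes, a 67.5-fold lower level (−6.08 ± 0.36, adjusted p = 2.8e-10). Among 34 receptor genes, 8 were higher and 11 lower (median −0.57). The counts were 4 and 7 with pool IV as the only monocyte library. The leukotriene B4 receptor Ltb4r1 stood at 0.30, 0.90 and 0.84 and 7.05, 7.25 and 7.07 (−6.44 ± 0.37, adjusted p = 1.7e-10) and the formyl peptide receptor Fpr2 at 0.47, 0.85 and 1.16 and 4.74, 5.19 and 4.98 (−4.15 ± 0.22, adjusted p = 5.4e-11), both lower in macrophages. The nucleotide receptor P2ry12, best known from microglia, was higher, at 4.52, 3.38 and 4.21 against 1.13, −0.14 and 0.31 (3.60 ± 0.42, adjusted p = 2.1e-06).

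Growth factors and eicosanoid enzymes gave 17 higher and 13 lower genes of 43 (median 0.43). The counts were 12 and 5 with pool IV as the only monocyte library. Igf1, insulin-like growth factor 1, stood at 3.78, 3.57 and 4.19 in macrophages and −2.71, −3.11 and −2.78 in monocytes (6.71 ± 0.85, adjusted p = 5.7e-06), and Pdgfc at 3.85, 2.96 and 3.11 and −3.39, −2.37 and −6.32 (7.33 ± 0.95, adjusted p = 7.1e-06). Bmp2, which gut macrophages supply to enteric neurons, stood at 3.85, 3.09 and 2.85 and −0.25, −8.65 and −1.48 (adjusted p = 0.0056). Among the 5 prostaglandin enzymes of the list, Ptgs1, the constitutive cyclooxygenase (4.92, 5.01 and 4.97 against 0.09, −0.57 and 0.42, adjusted p = 8.2e-13), and the prostaglandin D synthase Hpgds (6.08, 5.72 and 5.97 against 1.35, 1.58 and 1.65, adjusted p = 5.7e-08) were higher. Hpgd, which breaks prostaglandins down, was higher too (3.43 ± 1.23, adjusted p = 0.0411). Ptgs2, the inducible cyclooxygenase, was lower (4.63, 4.27 and 4.56 against 7.90, 8.39 and 7.50, −3.44 ± 0.22, adjusted p = 7.1e-10), as was the prostaglandin E synthase Ptges (−1.81 ± 0.58, adjusted p = 0.0227). The calls of Hpgd and Ptges ended with pool IV as the only monocyte library (adjusted p = 0.102 and 0.104) and without macrophage pool II or IV or monocyte pool IV or V. That of Hpgd ended also without macrophage pool III and with the pool number as a block (0.0819). Their adjusted p reached 0.145 and 0.134 over all alternatives. Inhba, a subunit of activin A, was lower at −0.52, 2.54 and 2.28 against 7.89, 8.32 and 7.71 (−6.54 ± 0.57, adjusted p = 4.3e-08).

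Of 51 inflammatory mediators, 7 were higher and 22 lower (median −0.53). The counts were 2 and 18 with pool IV as the only monocyte library. Il1b, interleukin 1 beta, was abundant in both populations, at 7.63, 8.30 and 8.27 in macrophages and 11.51, 12.27 and 11.99 in monocytes, and 14.5-fold lower in macrophages (−3.85 ± 0.28, adjusted p = 4.1e-09). Slpi, an inhibitor of leukocyte proteases, stood at 0.42, 2.78 and 2.08 and 8.29, 8.98 and 8.12 (−6.71 ± 0.49, adjusted p = 3.8e-09). Il12a, a subunit of IL-12, had 0, 0 and 2 reads in macrophages and averaged 2.74 log2 RPKM in monocytes (adjusted p = 1.6e-05), a ratio of 475 with a counting interval of 131 to 3920. Tnf differed by −0.94 ± 0.30 (adjusted p = 0.0249) and Il6 by −1.46 ± 0.46 (adjusted p = 0.0215), and both calls ended without macrophage pool IV or without monocyte pool IV, that of Il6 also without macrophage pool III or monocyte pool V. The largest adjusted p over all alternatives was 0.16 for Tnf and 0.0965 for Il6, which with pool IV as the only monocyte library had 0.0507. Il10 went the other way, at 7.88, 6.31 and 6.67 in macrophages and 3.64, 4.13 and 3.94 in monocytes, 8.28-fold higher (3.05 ± 0.39, adjusted p = 6.7e-06). In the list of IL-10 and TGF-beta signalling, 6 of 34 genes were higher and 10 lower (median −0.13). The counts were 4 and 6 with pool IV as the only monocyte library. Both TGF-beta receptors were higher, Tgfbr2 at 5.89, 5.01 and 5.52 against 2.54, 2.54 and 2.60 (2.91 ± 0.21, adjusted p = 2.5e-09) and Tgfbr1 at 5.20, 5.29 and 5.46 against 3.61, 3.25 and 3.21 (1.96 ± 0.17, adjusted p = 4e-08). The IL-10 receptor chain Il10ra was lower (−0.91 ± 0.15, adjusted p = 0.00011).

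**Figure D3:**
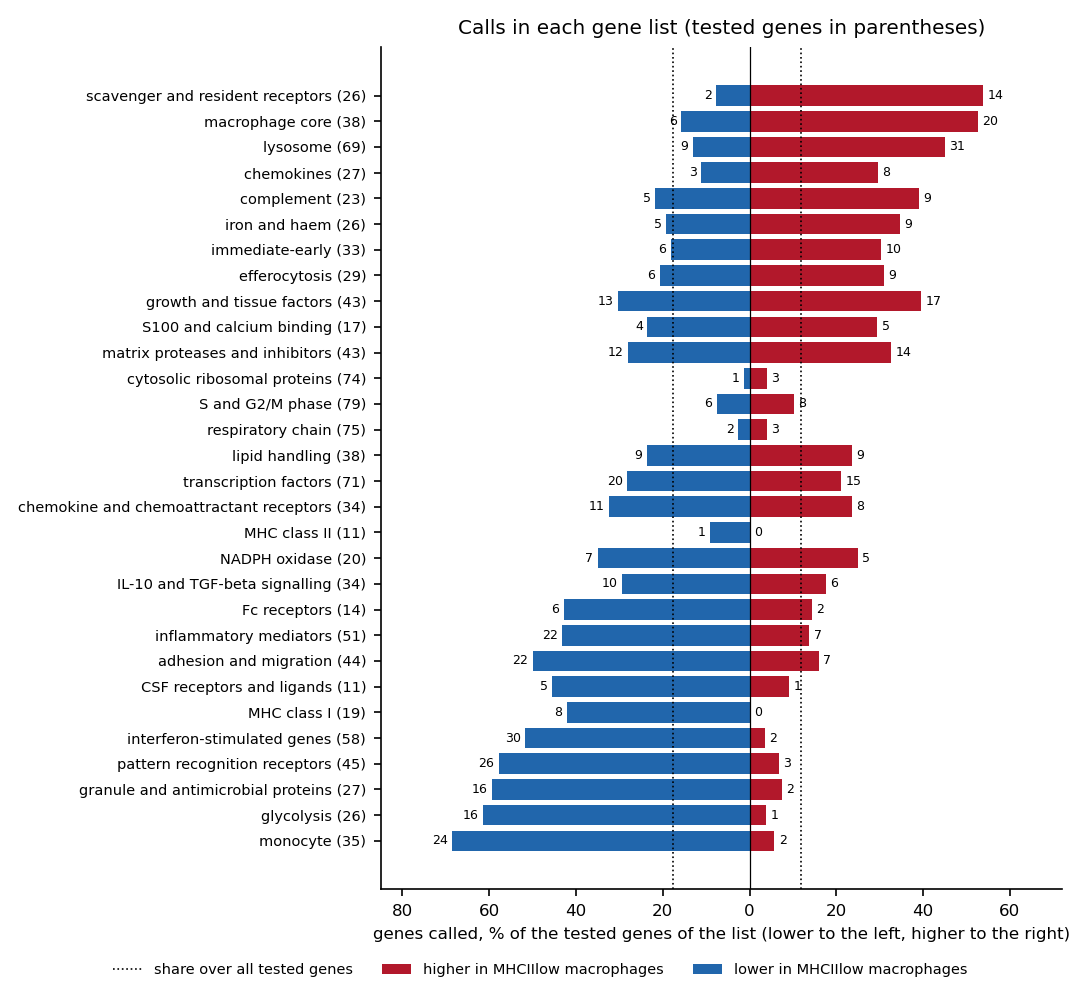
Share of the tested genes of each list (number tested in parentheses) that were called lower (blue, to the left) or higher (red, to the right) in LP MHCIIlow macrophages than in LP monocytes, with the number called at the end of each bar. Dotted lines mark 17.6% lower and 11.9% higher over all 12878 genes tested; receptor and lysosome lists stand at the top and the monocyte, glycolysis, granule and sensor lists at the bottom.

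In the list of monocyte genes, 2 were higher and 24 lower of 35 (68.6% lower, median −1.72). After Ly6c2, Cd177 and Chil3, its largest difference was in Ace, the angiotensin-converting enzyme, which stood at −3.11, −9.22 and −5.44 in macrophages and 3.16, 3.24 and 3.12 in monocytes (−9.10 ± 1.73, adjusted p = 0.00046). Lyz2, lysozyme of both cell types, was level, at 12.92, 12.99 and 13.02 and 12.75, 12.96 and 13.28 (−0.02 ± 0.27, adjusted p = 0.972), while Lyz1 was higher in macrophages (2.51 ± 0.50, adjusted p = 0.00073). Granule and antimicrobial proteins gave 2 higher and 16 lower genes of 27 (median −2.86), and 3 and 7 with pool IV as the only monocyte library, with Slfn4 at 1.33, −0.92 and −0.61 against 5.83, 6.70 and 5.28 (−6.0 ± 0.46, adjusted p = 8.6e-09) next after those named above.

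Sensors of microbes were lower in 26 and higher in 3 of 45 genes tested (57.8% lower, median −0.87). Trem3 stood at −3.24, 0.94 and 1.68 in macrophages and 5.10, 5.24 and 5.20 in monocytes (−5.38 ± 0.72, adjusted p = 9.5e-06), and Trem1, which amplifies responses of myeloid cells, at 2.69, 4.37 and 4.05 and 7.94, 8.19 and 7.96 (−4.33 ± 0.30, adjusted p = 2.1e-09). Clec4e, the receptor Mincle, stood at 5.06, 5.45 and 5.62 and 8.94, 8.98 and 8.80 (−3.53 ± 0.22, adjusted p = 4.7e-10), and Sirpb1a at −1.03, 2.06 and 1.14 and 4.30, 4.52 and 4.62 (−3.76 ± 0.47, adjusted p = 5.2e-06). The adaptor Myd88 (−0.87 ± 0.16, adjusted p = 0.0003) and the cytosolic sensor Nod2 (−2.46 ± 0.27, adjusted p = 8.6e-07) were lower too. Ly86, a partner of the receptor CD180, was higher (1.28 ± 0.31, adjusted p = 0.0037, and 0.13 with pool IV as the only monocyte library). Of interferon-stimulated genes, 30 were lower and 2 higher of 58 (51.7% lower, median −0.96). Ms4a4c stood at 0.58, 2.13 and 1.97 and 7.21, 7.61 and 7.41 (−5.85 ± 0.41, adjusted p = 2.5e-09) and Slfn1, a schlafen protein, at 0.39, 2.48 and 1.83 and 6.31, 6.51 and 6.14 (−4.75 ± 0.37, adjusted p = 8.6e-09). Samhd1, a nucleotide phosphohydrolase that limits viruses, was lower by the same test (−3.70 ± 0.22, adjusted p = 2.7e-10), as was the guanylate-binding protein Gbp2 (−3.69 ± 0.55, adjusted p = 3.5e-05). MHC class I genes and their peptide loaders were lower in 8 of 19 (median −0.64), the peptide transporter Tap1 most (−2.68 ± 0.35, adjusted p = 7.2e-06). B2m, the light chain of class I, was not called (10.49 and 10.20 on average, adjusted p = 0.436).

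Fc receptors and their kinases gave 2 higher and 6 lower genes of 14 (median −0.15). Besides Fcrls, the neonatal Fc receptor Fcgrt was higher (7.85, 7.26 and 7.28 against 2.80, 3.0 and 3.05, 4.52 ± 1.34, adjusted p = 0.0154). The call ended with only the shared pools. It also ended with pool IV as the only monocyte library, although pool IV lay between the other monocyte libraries. The Src family kinase Fgr was lower (4.40, 5.06 and 4.96 against 7.01, 7.40 and 7.16, −2.38 ± 0.16, adjusted p = 1.8e-09). Of 11 genes of colony-stimulating factors and their receptors, 5 were lower and 1 higher (median −0.88). The lower ones held receptor genes for GM-CSF and its relatives, the common beta chain Csf2rb (5.41, 6.71 and 6.61 against 8.86, 9.33 and 9.19, −2.88 ± 0.26, adjusted p = 5.2e-08), the related IL-3 receptor chain Csf2rb2 (−2.04 ± 0.23, adjusted p = 1.3e-06) and the alpha chain Csf2ra (−1.59 ± 0.16, adjusted p = 2.3e-07), as was the G-CSF receptor Csf3r (−1.16 ± 0.16, adjusted p = 1.4e-05). Csf2rb and Csf2rb2 are related copies, and 12% of the 51-base stretches of Csf2rb occur in other genes.

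Of 44 genes of adhesion and migration, 7 were higher and 22 lower (median −0.78). Vcam1, a ligand of the integrin of lymphocytes and monocytes, stood at 7.68, 7.74 and 7.83 in macrophages and 2.81, 1.76 and 2.80 in monocytes, 39.2-fold higher (5.29 ± 0.31, adjusted p = 2.7e-10). The small GTPase Rhoc stood at 6.01, 5.61 and 5.65 and 1.34, 1.03 and 0.66 (4.75 ± 0.34, adjusted p = 2.6e-09), and the tetraspanin Cd81, chosen after its values were seen, at 8.64, 8.23 and 8.40 and 4.90, 2.81 and 3.63 (4.64 ± 0.34, adjusted p = 3.6e-09). The integrin chains Itgal (−3.63 ± 0.35, adjusted p = 1.4e-07) and the gut-homing Itgb7 (−4.03 ± 0.57, adjusted p = 1.9e-05) were lower. E-cadherin (Cdh1, −1.60, −2.22 and −4.68 against 4.45, 2.30 and 4.17, adjusted p = 0.00036) lost its call with pool IV as the only monocyte library (adjusted p = 0.0545). Matrix proteases and their inhibitors moved both ways, with 14 higher and 12 lower of 43 (median 0.13). The proteoglycan Vcan (−2.25, −0.21 and −0.56 against 5.30, 5.83 and 5.36, −6.50 ± 1.30, adjusted p = 0.00072), the coagulation factor F10 (0.43, 2.94 and 2.48 against 7.84, 8.25 and 7.93, −6.06 ± 0.58, adjusted p = 1.6e-07) and the neutrophil collagenase Mmp8 (−5.42, 1.65 and 1.53 against 5.11, 5.35 and 5.01, −5.90 ± 1.13, adjusted p = 0.00048) were lower. The protease inhibitor Serpinb6a (6.47, 5.68 and 6.19 against 1.88, −0.39 and 0.40, 5.49 ± 0.40, adjusted p = 3.7e-09) and the metalloprotease inhibitor Timp2 (5.92, 5.25 and 5.35 against 0.93, 0.20 and 1.10, 4.76 ± 0.29, adjusted p = 4.7e-10) were higher.

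Glycolytic genes were mostly lower. Of 26 enzymes and transporters tested, 16 were lower in macrophages (61.5%, against 17.6% of all genes) and 1 higher (median −0.95, and −0.70 with library sizes as summed reads). The lactate exporter Slc16a3 stood at 2.65, 3.39 and 3.06 in macrophages and 7.37, 7.75 and 7.52 in monocytes, a 22.8-fold difference (−4.51 ± 0.18, adjusted p = 8.2e-13). The glucose transporter Slc2a6 (2.65, 1.78 and 2.06 against 5.25, 5.36 and 5.47, −3.20 ± 0.26), the liver type phosphofructokinase Pfkl (3.44, 3.29 and 3.06 against 5.50, 5.55 and 5.26, −2.17 ± 0.16) and enolase (Eno1, 5.57, 5.49 and 5.48 against 7.35, 7.73 and 7.53, −2.02 ± 0.16) followed, with adjusted p = 1.8e-08, 3.9e-09 and 1.1e-08. Hif1a, the oxygen-regulated factor that drives glycolytic genes, was lower as well (6.06 and 8.15 on average, −2.09 ± 0.14, adjusted p = 1.4e-09). Of respiratory chain subunits, 3 were higher and 2 lower of 75 (median 0.08), shares of 4 and 2.67% that lie below those of all genes. Cytosolic ribosomal proteins gave 3 higher and 1 lower of 74 (median −0.05). NADPH oxidase and antioxidant genes gave 5 higher and 7 lower of 20 (median 0.01), with the extracellular glutathione peroxidase Gpx3 (2.08 ± 0.31, adjusted p = 3.7e-05) higher and the oxidase subunit Ncf4 lower (−1.67 ± 0.17, adjusted p = 3.2e-07). S100 and annexin genes gave 5 higher and 4 lower of 17 (median −0.08). The counts were 6 and 1 with pool IV as the only monocyte library. The medians of the lipid, IL-10 and TGF-beta, Fc receptor, S100, ribosomal and class II lists lay below 0 and moved to 0.08, 0.12, 0.09, 0.16, 0.19 and 0.20 with library sizes as summed reads, so that no direction is given for them.

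Of 71 transcription factor genes tested, 15 were higher and 20 lower (median 0.05). The counts were 8 and 12 with pool IV as the only monocyte library. Runx2 stood at −4.04, −0.15 and −0.14 in macrophages and 3.75, 3.54 and 3.53 in monocytes (−5.05 ± 0.64, adjusted p = 5.9e-06), and Bhlhe40, which restrains Il10 in myeloid cells, at 4.42, 4.74 and 4.56 and 7.49, 7.40 and 6.80 (−2.65 ± 0.18, adjusted p = 1.8e-09). The related Bhlhe41 was higher, at 2.87, 2.34 and 2.80 against −0.23, −1.04 and −4.77 (4.68 ± 0.88, adjusted p = 0.00039), as were Klf2 (4.27, 4.41 and 4.49 against 1.68, 1.34 and 2.49, 2.56 ± 0.49, adjusted p = 0.00049) and the factor Mitf of lysosomal genes (1.56 ± 0.30, adjusted p = 0.0005). Irf7, of interferon signalling, was lower (−2.10 ± 0.28, adjusted p = 7.9e-06). Spi1, Maf and Nr1h3, factors of the lineage, were among the 36 genes of the list that were not called. They do not stand for all factors of the lineage, since other members of the list were called. Spi1, which encodes PU.1, averaged 7.18 in macrophages and 7.96 in monocytes (adjusted p = 0.139), Maf 3.60 and 2.70 (adjusted p = 0.104) and Nr1h3 (the liver X receptor alpha) 4.02 and 4.12 (adjusted p = 0.883). Reads of some genes named here cannot be assigned with certainty, since 29.5% of the 51-base stretches of Cd209f, 30.9% of Fpr2, 39.7% of Sirpb1a, 26.3% of Ctsl, 25.9% of Eno1, 25% of Serpinb6a and 33.9% of C4b occur in other genes.

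Immediate-early and heat shock genes, which respond to tissue digestion among other stimuli, were higher in 10 and lower in 6 of 33 (median 0.25). The counts were 6 and 1 with pool IV as the only monocyte library. Hspa1a stood at 9.61, 6.33 and 6.86 in macrophages, led by pool II, and 3.93, 3.64 and 3.63 in monocytes (3.86 ± 0.54, adjusted p = 1.5e-05), although 66.1% of its 51-base stretches are shared, mainly with Hspa1b. Fosb stood at 6.96, 6.42 and 6.38 and 4.65, 4.54 and 4.43 (2.05 ± 0.25, adjusted p = 4.1e-06), whereas Fos, Jun and Dusp1 were not called (adjusted p = 0.114, 0.312 and 0.928). Genes of S and G2/M phase were higher in 8 and lower in 6 of 79 (10.1 and 7.59%, below the 11.9 and 17.6% of all genes, median 0.47). The counts were 11 and 3 with pool IV as the only monocyte library. Mki67, which marks cycling cells, stood at 2.44, 1.85 and 2.41 in macrophages and 0.46, 0.68 and 0.66 in monocytes (1.63 ± 0.24, adjusted p = 2.6e-05), and Top2a and Cdk1 were not called (adjusted p = 0.637 and 0.663). The study set LP against tumour macrophages, by Ki-67 protein and cell cycle transcripts, and reported no evidence that LP macrophages were cycling.

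Markers of other cells were read for what the gates could have let through. Of 13 neutrophil genes, 10 were lower and 1 higher in macrophages, their summed level running from 5.23 to 6.78 log2 RPKM in the macrophage libraries and from 8.59 to 9.69 in the monocyte libraries. Fewer of them were called with pool IV as the only monocyte library, a fit that called fewer genes over all genes tested. The neutrophil antigen gene Ly6g had 0 reads in the macrophage libraries and 2, 22 and 4 in the monocyte libraries (adjusted p = 0.0122, 0.0536 with the pool number as a block and up to 0.53 over all alternatives, the call ending without monocyte pool IV), whereas the higher gene, Mmp9, is also made by macrophages (3.41 ± 0.52, adjusted p = 5.3e-05). S100a8 stood at −0.28, 1.93 and 1.03 in macrophages and 3.65, 4.50 and 3.10 in monocytes, and S100a9 at −2.31, 1.22 and −0.58 and 3.17, 3.65 and 3.30. Pool IV was the highest monocyte library for both genes. Both calls nevertheless ended with pool IV as the only monocyte library, and that of S100a8 also without macrophage pool II or monocyte pool IV. Among 10 B and plasma cell genes, Ighm was higher (0.95 ± 0.26, adjusted p = 0.0089, and 0.0595 without monocyte pool IV), and Sdc1 (−3.59 ± 0.46, adjusted p = 5.5e-06) and Xbp1 (−0.65 ± 0.18, adjusted p = 0.0088) were lower, Xbp1 with groups that overlapped and a call that ended without macrophage pool III (adjusted p up to 0.0902 over all alternatives). By voom on the recovered reads 6 of the 10 were lower. The IgA heavy chain gene Igha stood at 4.20, 7.85 and 8.62 in macrophages and 9.08, 9.41 and 10.67 in monocytes (adjusted p = 0.208). Of 12 epithelial genes 1 was higher and 2 lower (8.33 and 16.7%, near the shares of all genes). Epcam, of gut epithelium, stood at 0.92, −1.12 and 1.66 and 5.28, 0.96 and 4.46, with pool IV inside the macrophage range. Its adjusted p was 0.0432, but 0.133 with the pool number as a block and 0.89 with pool IV alone, and the call also ended without macrophage pool II or III or monocyte pool III or V. Among 9 fibroblast, 7 mast cell, 4 eosinophil and 4 sex-linked genes limma called 0 genes, 1 eosinophil gene had an unadjusted p under 0.05. Some alternatives made calls, with 3 fibroblast genes higher by voom on the recovered reads, 1 after quantile normalization, and 1 eosinophil gene higher with the pool number as a fixed block or with only the shared pools. Of 9 dendritic cell genes 2 were higher and 3 lower, with Siglech of plasmacytoid dendritic cells at 3.65, 2.58 and 3.14 in macrophages and −8.58, −2.50 and −8.58 in monocytes (adjusted p = 0.00072, and 0.144 with pool IV alone) and Flt3, a growth factor receptor of dendritic cells, with 0 reads in macrophages and at −1.16, −1.24 and −1.64 in monocytes, at least 24.1-fold lower (adjusted p = 0.00074). Of 6 muscle and nerve genes 2 were higher, desmin (Des, −0.30, 0.62 and −0.59 against −8.73, −8.73 and −4.98, adjusted p = 0.0032) and Actg2 (adjusted p = 0.0042), both of smooth muscle. Of 8 lymphocyte and of 5 endothelial genes 1 each was higher and 1 lower, and of 5 erythroid genes 1 was higher, too few to be read against the shares of all genes (11.9% higher and 17.6% lower). The part of other cells in the differences was not tested.

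**Figure D4:**
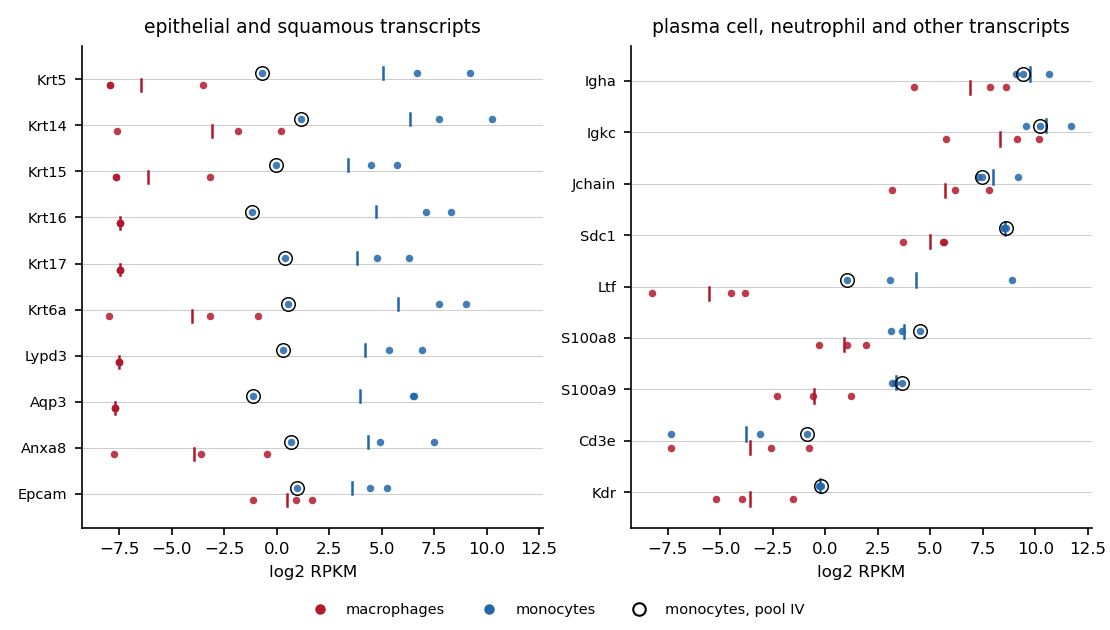
Log2 RPKM in each LP MHCIIlow macrophage (red) and LP monocyte library (blue) for genes of squamous and other epithelium (left) and of plasma cells, neutrophils, lymphocytes and endothelium (right); short bars are group means and black rings mark the pool IV monocyte library. For the keratins, Lypd3, Aqp3, Anxa8 and Epcam the ringed library lies well below the other 2 monocyte libraries, whereas for Igha, Igkc, Jchain and Sdc1 it lies with them.

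LP MHCIIhi macrophages were used to ask which of these levels differ between the macrophage subsets. The contrast of the 2 subsets gave 274 higher (2.13%) and 717 lower genes (5.57%) in MHCIIlow macrophages, far fewer than the contrast with monocytes, and with the pool number as a block 156 in place of 274 were higher. Because both subsets are set against the same monocyte libraries, their levels are given side by side. C1qa averaged 9.80 log2 RPKM in MHCIIlow and 9.82 in MHCIIhi macrophages (−0.02 ± 0.32, adjusted p = 0.998), Selenop 10.55 and 10.17 (adjusted p = 0.295), Apoe 12.44 and 13.18 (adjusted p = 0.239), Mrc1 7.79 and 7.58 (adjusted p = 0.923), Vcam1 7.75 and 7.88 (adjusted p = 0.907) and Il10 6.95 and 6.38 (adjusted p = 0.469), and none of them was called between the subsets. Several monocyte genes were lower still in the MHCIIlow subset. Ccr2 averaged 0.73, 3.83 and 6.81 in MHCIIlow macrophages, MHCIIhi macrophages and monocytes, with a difference between the subsets of −3.10 ± 0.36 (adjusted p = 2.5e-05). The same order held for Il1b (8.07, 10.09 and 11.92, subset difference −2.02 ± 0.28, adjusted p = 0.00014), Csf2rb (6.25, 8.62 and 9.13, −2.38 ± 0.26, adjusted p = 1.1e-05), Thbs1 (8.25, 10.29 and 12.28, −2.04 ± 0.42, adjusted p = 0.0041), Ltb4r1 (0.68, 3.0 and 7.12, −2.31 ± 0.37, adjusted p = 0.00041) and Bhlhe40 (4.57, 6.01 and 7.23, −1.44 ± 0.18, adjusted p = 4.7e-05). Higher in the MHCIIlow subset than in both others were Lyve1 (6.24, 1.79 and 0.59, 4.44 ± 1.24, adjusted p = 0.0309, and up to 0.187 over all alternatives, the call ending with the pool number as a block and without macrophage pool II or IV), Serpinb6a (3.04 ± 0.40, adjusted p = 6.9e-05) and Timp2 (1.58 ± 0.29, adjusted p = 0.0018). Folr2, Cd163 and Timd4, with 5.30, 2.35 and 0.99 in MHCIIhi macrophages, were not called between the subsets (adjusted p = 0.344, 0.246 and 0.528).

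In tumours the same 2 populations could be compared, and the difference between LP and tumour was tested as an interaction, the LP difference minus the tumour difference. By the study's methods, tissue went together with genotype, DSS dose and cell isolation. LP tissue was treated with EDTA and digested for longer, while tumours were digested with added DNase. In an interaction these cannot be told apart from the tissue. It was called for 1195 genes, 678 in the positive (5.26%) and 517 in the negative direction (4.01%). Retnla had 0 reads in all tumour libraries of both populations (interaction 10.03 ± 1.20, adjusted p = 2.9e-05), against 3.95 in LP MHCIIlow macrophages. Il10 was higher in macrophages than in monocytes in LP and not called in tumours (LP 3.05, tumour −0.79, interaction 3.84 ± 0.56, adjusted p = 0.00016), with tumour MHCIIlow macrophages at 4.43 ± 0.60 and tumour monocytes at 5.23 ± 0.03. The complement gene C4b (LP 3.19, tumour −2.56, interaction 5.76 ± 0.91, adjusted p = 0.00033), Irf4, a factor of alternatively activated macrophages (2.54, −2.23 and 4.77 ± 0.95, adjusted p = 0.0029), and the metalloreductase Steap4 (2.30, −3.72 and 6.02 ± 1.02, adjusted p = 0.00072) had opposite signs in the tissues. Within LP, C4b and Irf4 were not called with pool IV as the only monocyte library (adjusted p = 0.0512 and 0.0639), and Steap4 was not with the pool number as a block (0.0627) or without macrophage pool II, monocyte pool IV or monocyte pool V (up to 0.247 over all alternatives). Has1, a hyaluronan synthase, and Serpinb2, an inhibitor of plasminogen activators, were lower in macrophages than in monocytes in tumours (−9.08 and −10.85) and not called in LP (1.33 and −2.89), with interactions of 10.41 ± 1.68 (adjusted p = 0.00044) and 7.95 ± 1.98 (adjusted p = 0.0135). Rhoc (4.75 and 1.58, 3.17 ± 0.48, adjusted p = 0.00022) and Selenop (4.81 and 3.53, 1.28 ± 0.28, adjusted p = 0.0057) differed less between the populations in tumours.

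Among the named genes, the largest negative interactions were those of the squamous genes Lypd3 (−14.95 ± 2.83, adjusted p = 0.0018) and Krt5 (−13.76 ± 3.38, adjusted p = 0.0126), with Plxdc2, below, next. The squamous gene Aqp3 (−9.76 ± 3.02, adjusted p = 0.0472) and Cyp2f2, a cytochrome P450 of airway epithelium (−8.47 ± 2.54, adjusted p = 0.041), came after Plxdc2. Lypd3, Krt5, Aqp3 and Cyp2f2 all had monocyte values from pools III and V above pool IV. Within LP, Cyp2f2 was not called with pool IV alone (adjusted p = 0.342). Plxdc2, a transmembrane protein with a plexin domain, was higher in tumour macrophages than tumour monocytes (11.51) and not called in LP (0.08, interaction −11.42 ± 2.36, adjusted p = 0.0036), and Tmem26 likewise (9.42 and 2.35, −7.07 ± 1.99, adjusted p = 0.029). The unnamed gene ENSMUSG00000094749.1 had 0 reads in all tumour libraries of both populations (−7.95 ± 2.14, adjusted p = 0.0227). Nos2 was lower in macrophages in both tissues, and more so in LP (−8.74 and −2.99, −5.75 ± 1.23, adjusted p = 0.0048). Cxcl9 (−4.68 and −0.45, −4.23 ± 1.05, adjusted p = 0.0131), Cd300lf (−5.45 and −1.93, −3.52 ± 0.51, adjusted p = 0.00016) and Slc16a3 (−4.51 and −2.32, −2.19 ± 0.26, adjusted p = 2.3e-05) were also further below monocytes in LP. Among class II genes, Cd74 stood at 11.54 ± 1.01 in tumour MHCIIlow macrophages and 9.22 ± 0.27 in tumour monocytes, with an interaction of −2.24 ± 0.67 (adjusted p = 0.0413), and Ciita at 2.69 ± 0.52 and 1.09 ± 0.62 (−3.31 ± 0.51, adjusted p = 0.00026). With pool IV as the only LP monocyte library the interactions of Lypd3, Krt5, Aqp3, Cyp2f2, Plxdc2, Tmem26, ENSMUSG00000094749.1, Cxcl9, Cd74 and Serpinb2 were not called, and the largest adjusted p over all alternatives ran from 0.0525 for Plxdc2 to 0.576 for Krt5. With the pool number as a block those of Aqp3 (0.163), Cyp2f2 (0.143), Tmem26 (0.101), ENSMUSG00000094749.1 (0.164) and Cxcl9 (0.0838) were not called. Leaving out macrophage pool II ended the interactions of Aqp3, Cyp2f2, Tmem26, ENSMUSG00000094749.1 and Cd74, pool III those of Aqp3 and Cyp2f2 and pool IV those of Aqp3, Cd74 and ENSMUSG00000094749.1. Leaving out monocyte pool III ended those of Aqp3, Cyp2f2 and Cd74, pool IV those of Tmem26 and Cd74 and pool V those of Aqp3, Cyp2f2, Tmem26 and Cd74. The interactions of C1qa (0.17 ± 0.46, adjusted p = 0.894), Ccr2 (−1.14 ± 0.51, adjusted p = 0.184), Ly6c2 (0.69 ± 1.21, adjusted p = 0.819) and Cd4 (0.46 ± 2.39, adjusted p = 0.951) were not called, and their differences in tumours were 7.79, −4.94, −9.58 and 11.05.

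**Figure D5:**
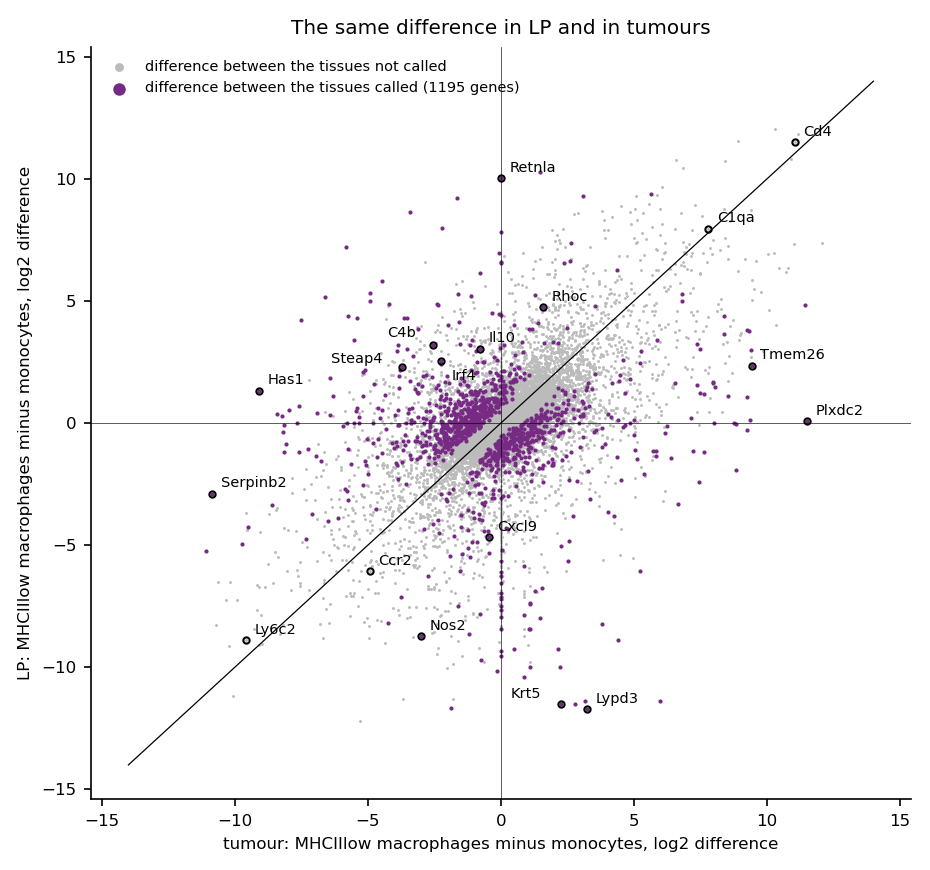
Log2 difference of MHCIIlow macrophages minus monocytes in tumours (horizontal axis) and in LP (vertical axis) for the 12878 genes tested, with the line of equal difference. The 1195 genes whose difference between the tissues was called (purple) lie away from the line, with Retnla high in LP and at 0 in tumours and Plxdc2 the reverse, whereas C1qa, Cd4, Ccr2 and Ly6c2 lie near it.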

How the data were processed

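RNA of flow-sorted cells was amplified by a modified SMARTSeq v2 method, and libraries were read in pairs of 51 bases. The authors aligned reads with STAR 2.3 to GRCm38/mm10 and counted them per GENCODE gene with featureCounts 1.5, in pools of 13 to 15 mice, and removed genes that averaged under 10 reads in all populations. Values are the deposited log2 RPKM of 17301 genes in 24 libraries, with a prior of 0.25 reads and scaled library sizes (1.10 to 1.40 times the reads in the 6 libraries compared). All 415224 values gave whole reads (tolerance 0.002), from 12.8 to 40.2 M per library here. Of the reads recovered at counts of 1 to 10, 66.0% were even, so intervals, which cover counting error only, are too narrow. Spike-ins had 0 rows. Symbols matched 17190 identifiers, and the table had 0 unmapped columns.

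The test was limma 3.58.1 (R 4.3.3) on the log2 values of 12878 genes with a mean of at least 1 RPKM in any group, fitted to all 24 libraries with 16 residual degrees of freedom (two-sided, Benjamini-Hochberg over all genes). The interaction was the LP difference minus the tumour difference. On data simulated for the LP comparison (12878 genes), 22% of genes changed by 1 and 45% of those changed by 2 on the log2 scale were recovered. The labels call the pool number a donor, so it pairs libraries III and IV across the groups. The correlations of same-numbered deviations were −0.04 for pool III and −0.03 for pool IV (−0.07 to 0.26 over all 29 such pairs). Floors are 3 reads per library, and intervals have a level of 95%.

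Named were the genes of the sort, the 15 called genes with the largest difference in each direction (no overlap, mean of at least 10 RPKM in the higher group, no Gm or Rik models, pseudogenes, immunoglobulin or T cell receptor genes), up to 4 called genes per list (at least 5 RPKM) with textbook genes, and the 10 largest interactions. Some genes that this rule names are not reported here. The members, lists and rules were chosen with earlier results of these data known. Alternatives were pseudocounts of 1 and 0.1 RPKM, other filters, 3 other scalings, subsets of libraries, library weights, blocks for the pool, voom on the recovered reads and removal of each of the 6 libraries. The fits with pool IV as the only LP monocyte library, whose single value is assumed to vary like the other groups, were chosen after the data were seen. Promoters are from RefSeq (GRCm38.p6). Shares of 51-base stretches were computed from the transcripts of the annotation.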

Additional observations from a re-analysis of the deposited data

Results flagged for a closer look

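The difference between MHCIIlow macrophages and monocytes itself differed between LP and tumours for 678 genes in the positive and 517 in the negative direction by the interaction test (limma, Benjamini-Hochberg adjusted p under 0.05). Tissue cannot be told apart here from genotype, DSS dose and cell isolation. Among the genes named, the interaction was 10.03 for Retnla, 10.41 for Has1 and 7.95 for Serpinb2. It was −14.95 for Lypd3, −13.76 for Krt5, −9.76 for Aqp3 and −8.47 for Cyp2f2, whose LP monocyte values rest on pools III and V. It was −11.42 for Plxdc2, −7.07 for Tmem26, −7.95 for ENSMUSG00000094749.1, −5.75 for Nos2 and −2.24 for Cd74. Among the other genes named in the text, the interaction was positive for Steap4 (6.02), C4b (5.76), Irf4 (4.77), Il10 (3.84), Olr1 (3.17), Rhoc (3.17), Lyz1 (3.14), Ccl2 (2.95), Hspa1a (2.81), Slfn1 (2.58), Hmox1 (1.92), Selenop (1.28), Dusp1 (1.23), Clec4e (1.18) and Fosb (1.17). It was negative for Cxcl9 (−4.23), Hpgds (−3.99), Cd300lf (−3.52), Ciita (−3.31), Cfb (−3.10), Axl (−2.79), Itgax (−2.77), Itgal (−2.58), Mmp9 (−2.48), Sirpb1a (−2.24), Slc16a3 (−2.19), Maf (−2.15), Ptgs1 (−1.81), Gm2a (−1.60), Fpr2 (−1.59), Vcam1 (−1.50), Scarb2 (−1.48), Trem1 (−1.44), Pfkl (−1.24), Psap (−1.19), Slc2a6 (−1.18), Eno1 (−0.94) and Csf2ra (−0.82).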

How the results depend on the processing

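No named gene changed sign while called in any alternative. In the LP comparison 1533 genes were higher and 2263 lower. Leaving out 1 library at a time gave 1140 to 1342 and 1843 to 1972. With only the shared pools 976 were higher, and with voom on the recovered reads 2305 were higher. With pool IV as the only monocyte library, chosen after the data were seen, 955 were higher and 1351 lower. The interaction (678 positive, 517 negative) ranged from 529 to 682 and from 401 to 553 when 1 library was left out. It gave 977 negative genes at log2(RPKM + 1), 842 with library weights and 838 with voom, and 398 positive and 265 negative genes with pool IV alone. Between the macrophage subsets (274 higher, 717 lower), leaving out 1 library gave 108 to 280 higher and 471 to 735 lower genes. The lowest of these came without macrophage pool II, and without macrophage pool IV 143 were higher. The higher genes numbered 738 at log2(RPKM + 1), 429 at log2(RPKM + 0.1), 510 after quantile normalization, 680 with library sizes as summed reads, 633 with library weights and 742 with voom. The lower genes numbered 388 with summed reads, 1283 with library weights and 1099 with voom. With the pool number as a fixed block, 1153 and 1962 genes were higher and lower in the LP comparison, 2834 of the 3796 calls remained, and 156 were higher between the subsets. The block changed no call of a named gene beyond those given above. The cause of these changes was not tested. Of 192 named genes, 169 were called and 128 of these were called in every alternative. Genes near the floor of 3 reads are limited by depth.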
